A study of Mus musculus with 21 samples.

Results

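Potassium channel genes were examined in RNA-seq of the mouse midbrain after the neurotoxin MPTP and the muscle-derived peptide irisin. Members were all genes whose listed symbol begins with Kcn and is not marked as a pseudogene, taken in both deposited gene tables. There were 99 such genes among the 55592 genes of either table, and 96 of them were in both. Kcna7, Kcnj1 and Kcnk16 were listed in the delayed experiment only. Of the 99 members, 5 are antisense or other noncoding transcripts named after a channel gene (Kcnmb4os1, Kcnmb4os2, Kcnd3os, Kcnab3os and Kcnq1ot1), and the rest encode channel pores or their partner subunits.

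All 21 animals were male C57BL/6 mice labelled as 6 weeks old, in 7 groups of 3. In the pre-treatment experiment, control mice received water for 10 days, MPTP mice received water for 5 days and then MPTP for 5 days, and irisin pre-treated mice received irisin for 5 days and then MPTP for 5 days. In the delayed experiment, control mice received water for 10 days, irisin mice received water and then irisin, MPTP mice received MPTP and then water, and irisin post-treated mice received MPTP and then irisin, each step lasting 5 days. MPTP was injected into the peritoneum at 30 mg/kg a day and irisin at 200 µg/kg a day. MPTP is converted in the brain to a poison of mitochondrial complex I that damages dopaminergic neurons, and irisin is released from the membrane protein FNDC5. The labels call the tissue midbrain, while the study's methods describe hand-dissected nigra taken after perfusion. No label says whether mice of a group shared a cage or a day of treatment, so p-values measure the spread between these mice.

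Potassium channels let potassium leave or enter a cell along its gradient and thereby set the resting potential, end action potentials and pace firing. Voltage-gated families (Kcna, Kcnb, Kcnc, Kcnd, Kcnh, Kcnq) open with depolarization, inward rectifiers (Kcnj) hold the resting potential or clear potassium in glia, two-pore channels (Kcnk) carry background current, and other families open with calcium (Kcnma1, Kcnn) or sodium (Kcnt). In dopaminergic neurons of the nigra, A-type channels built from Kcnd3 and Kcnip subunits, the SK channel Kcnn3, the G protein-gated channel Kcnj6 and the ATP-sensitive channel Kcnj11 are known to shape pacemaking and its response to dopamine or energy shortage.

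Total counts lay between 66653781 and 75637604 for the 9 pre-treatment mice and between 48843585 and 77203445 for the 12 delayed mice. All 10 dopaminergic markers examined were detected, and their summed level ranged over all mice from 482 to 886 CPM (counts scaled to library size). Markers of GABA neurons, astrocytes and oligodendrocytes were present in every mouse, while 3 serotonergic markers ranged from 17.9 to 272 CPM between mice. The highest of these sums was in MPTP mouse 2 of the pre-treatment experiment. Of the glutamate neuron markers, that mouse had the highest Slc17a7 of its experiment, at 93.7 CPM, and the lowest Slc17a6, at 219 CPM. Markers of the choroid plexus, the epithelium that makes cerebrospinal fluid, stood apart in 5 mice, which were MPTP mouse 2 of the pre-treatment experiment and control mice 1 and 2, MPTP mouse 3 and irisin post-treated mouse 2 of the delayed experiment. Their 6 choroid plexus markers summed to 1356 to 1664 CPM, against 20.4 to 584 CPM in the other 16. Most of each sum was Ttr, the carrier of thyroid hormone in cerebrospinal fluid, and Folr1, Kl, Clic6 and Aqp1 also had their highest values in these mice within each experiment. Otx2 did not, since pre-treatment MPTP mouse 2 had 13.9 CPM and the other 8 mice ranged up to 20.2 CPM. Differences from delayed controls compare with 3 mice of which 2 were rich in these markers, and leaving out the rich mice leaves 1 control.

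Levels are compared between genes in FPKM (fragments scaled to transcript length and library size), which corrects for length, and the 2 experiments were normalized separately, so that values are set side by side without a test. A mean of at least 1 FPKM was reached by 60 of 96 members in the pre-treatment experiment and 58 of 99 in the delayed experiment, and 18 members reached 10 FPKM in each. The 10 members with the highest level made up 57.6% and 60.8% of the FPKM summed over members. Inward rectifiers held 24.6% and 26.5% of that sum, and auxiliary subunits 23.7% and 22.7%.

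**Figure D1:**
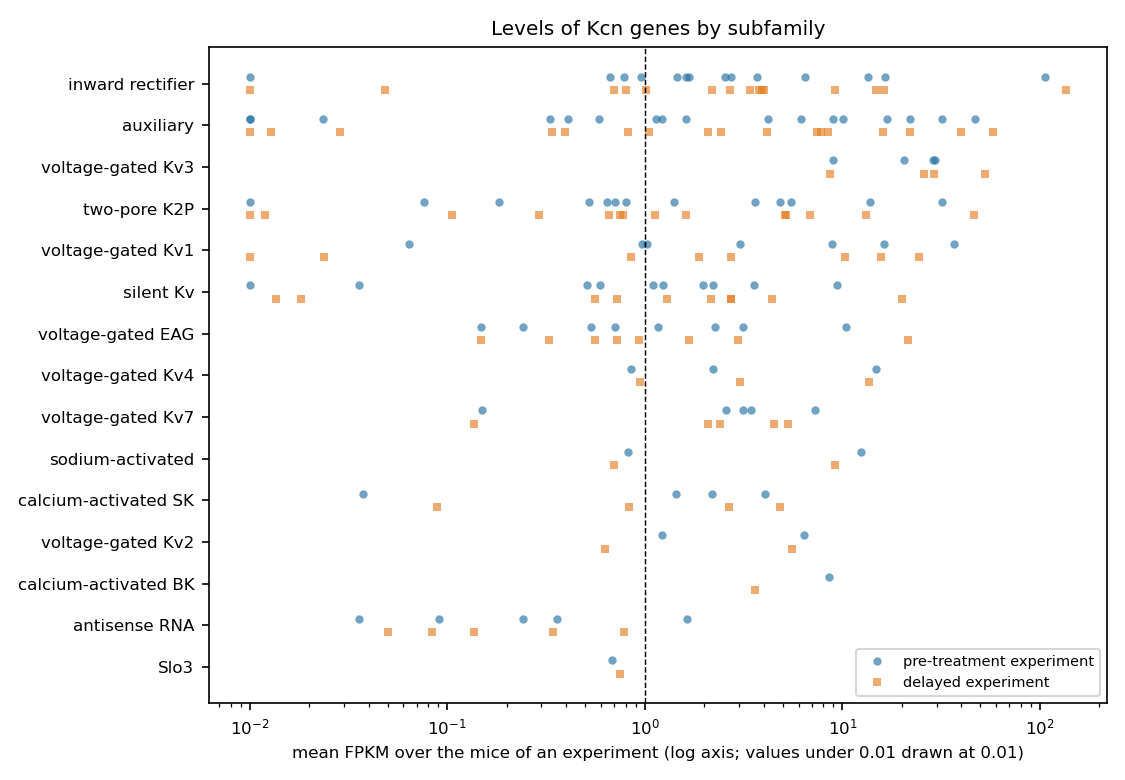
Mean FPKM of each Kcn gene (log axis) by subfamily, with circles for the pre-treatment and squares for the delayed experiment and a dashed line at 1 FPKM. The single highest gene is the inward rectifier Kcnj10, at 106 and 136 FPKM.

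Kcnj10, the Kir4.1 pore through which astrocytes clear potassium, was the highest member in both experiments. Its level was 106 ± 5.95 FPKM (SD, 9 mice) and 136 ± 5.81 FPKM (SD, 12 mice), and its lowest mouse was above the highest mouse of the next gene, Kcnab2. Kcnab2 and Kcnab3, cytoplasmic beta subunits of Kv1 channels, had 47.2 and 31.9 FPKM in the pre-treatment experiment and 57.6 and 39.7 FPKM in the delayed experiment. In the pre-treatment experiment, the ranges over mice of neighbouring genes overlapped at every step from rank 2 to rank 11, which include Kcnab2, Kcna2, Kcnab3, Kcnk1, Kcnc1, Kcnip4, Kcnc4, Kcnip3 and Kcnj16. They separated also in the delayed experiment between Kcnab3 and Kcnc1 and between Kcnc1 and Kcnc4.

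Members known from dopaminergic neurons spanned a wide range of levels in this mixed tissue. Kcnj6, the GIRK2 pore, had 0.787 and 0.802 FPKM in the 2 experiments, Kcnd3 had 0.855 and 0.942, and Kcnn3 had 2.18 and 0.833. The A-type partner Kcnip4 had a higher level, at 21.9 and 16.1 FPKM, as did Kcnj11 at 6.48 and 9.13 and Kcnj9, the GIRK3 pore, at 13.5 and 14.8. Kcnk13, known from microglia, had 3.63 and 5.11 FPKM, and Kcnj8, the ATP-sensitive pore of vessel mural cells, had 1.67 and 2.70. Members with a mean under 0.1 FPKM numbered 12 and 14 and included Kcnk18, Kcne1 and Kcng3, and 7 and 10 members had too few counts to be tested.

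Steadiness between mice differed among members. The median coefficient of variation of CPM over all mice of an experiment was 17.9% for tested members and 19.2% for all tested genes in the pre-treatment experiment, and 16.6% and 18.0% in the delayed experiment. Kcnc1, the Kv3.1 pore of fast-firing neurons, varied by 5.37% and 2.99%, and Kcnj10 by 6.96% and 4.35%.

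Each treatment was compared within its experiment, and 89 members had enough counts to be tested in each. No member passed an adjusted p of 0.05 in any of 6 comparisons by the quasi-likelihood test of edgeR, with p-values adjusted by Benjamini-Hochberg over all tested genes. Over all genes the share past that threshold was 0.0221% for MPTP against control and 0.0707% for irisin before MPTP against MPTP in the pre-treatment experiment. For the delayed experiment it was 0.132% for MPTP against control, 0.109% for irisin alone against control, 0.00456% for irisin after MPTP against MPTP and 0.0411% for the irisin by MPTP interaction, which asks whether irisin acted differently in MPTP mice. DESeq2, run without a count filter before the fit but with its default filter by mean count at the adjustment, gave 0, 1, 2, 1, 0 and 0 members in the same order. Kcnt1 was its member in the second comparison, Kcna1 and Kcnc2 in the third and Kcna1 in the fourth. A fit of the delayed control and MPTP mice alone gave 1 member, Kcnb2. The shares of all genes given above belong to the edgeR fit of all groups. Those of DESeq2 and of the fit of delayed control and MPTP mice alone are not given here, so these calls stand without a background.

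At an unadjusted p under 0.05, 8 members differed between MPTP and control mice of the pre-treatment experiment, which is 8.99% of the tested members against 6.03% of all tested genes. Irisin before MPTP gave 2 members (2.25% against 6.22%). Among delayed groups, MPTP gave 6 (6.74% against 8.33%), irisin alone 8 (8.99% against 8.97%), irisin after MPTP 4 (4.49% against 3.9%) and the interaction 8 (8.99% against 5.57%). These shares lay on both sides of the background, and with single mice left out the counts ranged from 2 to 13. The median log2 fold change of the members ranged from -0.019 to 0.04 over the 6 comparisons, and that of all genes from -0.0023 to 0.0031. The median standard error of a member was 0.21 in both comparisons of the pre-treatment experiment and 0.19 in the 3 comparisons of groups in the delayed one.

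**Figure D2:**
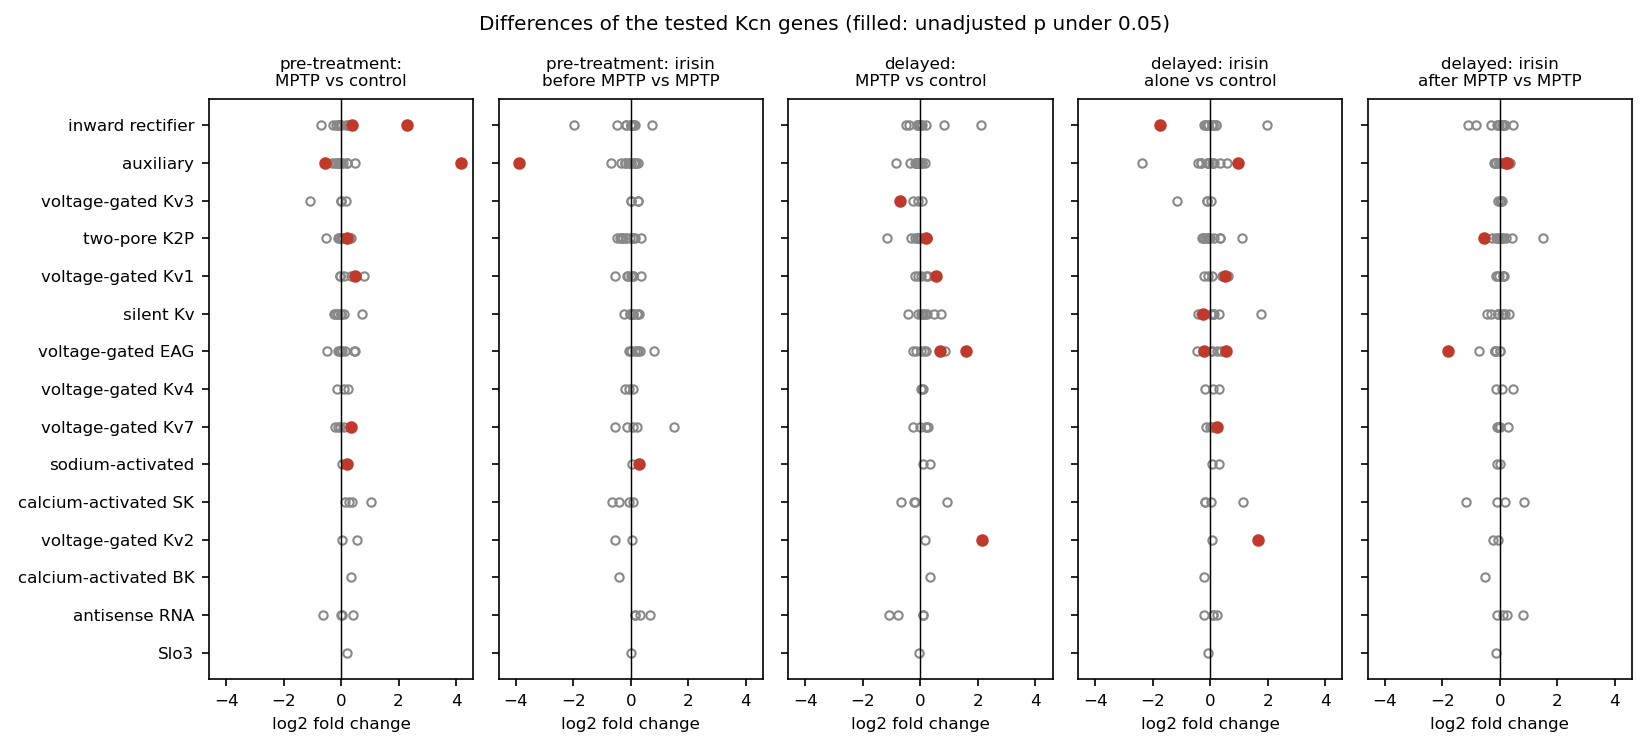
Log2 fold change (horizontal axis) of the 89 tested Kcn genes by subfamily (rows) in the 5 comparisons of groups, with filled red points for an unadjusted p under 0.05. Most points lie close to 0, and the widest ones in the pre-treatment panels are Kcne2 at 4.19 and -3.90, which become 0.32 and -0.038 without 1 choroid plexus-rich MPTP mouse.

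By subfamily, most medians lay close to 0, and no test was run on a subfamily as a whole. For MPTP in the pre-treatment experiment, all 4 tested SK channel genes had a positive log2 fold change, with a median of 0.34, and 0 of them passed an unadjusted p of 0.05, while 1 of the 4 was positive for MPTP in the delayed experiment (median -0.21). Of 13 and 14 tested inward rectifiers, 5 were positive in each experiment, with medians of -0.032 and -0.072. The 12 two-pore genes had medians of 0.033 and -0.048, and the 14 auxiliary genes -0.039 and -0.11. For irisin after MPTP, 0 of 8 EAG family genes (Kcnh) were positive, with a median of -0.16, and 1 of them passed the unadjusted threshold. A list of 34 members known from midbrain neurons, glia, vessels or choroid plexus was also counted. It was chosen with earlier results of these data known, so its shares describe the list and are not a test of it. In the pre-treatment experiment it had 5 genes past the unadjusted threshold for MPTP (14.7% against 6.03% of all genes). For irisin before MPTP it had 2 (5.88% against 6.22% of all genes). Without choroid plexus-rich MPTP mouse 2, both counts were 1, and the gene was Kcnt1. Kcne2, Kcnj13, Kcnk9 and Kcnj8 no longer passed, while the log2 fold changes of Kcnk9 and Kcnj8 for MPTP were then 0.19 and 0.36. In the delayed experiment, the same list had 2 for MPTP (5.88% against 8.33% of all genes), 3 for irisin alone (8.82% against 8.97% of all genes), 1 for irisin after MPTP (2.94% against 3.9% of all genes) and 3 for the interaction (8.82% against 5.57% of all genes). Without the choroid plexus-rich mice the counts for irisin alone, irisin after MPTP and the interaction were 1 (Kcna1), 1 (Kcnd3) and 0, and Kcnd3 was not among the genes counted with those mice.

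Kcnt1, the sodium-activated Slack channel, had the smallest p of all members in both comparisons of the pre-treatment experiment. Kcnt1 (ENSMUSG00000058740) lies at chr2:25863734-25917080 on the plus strand of GRCm38. Its level was 118, 107 and 114 CPM in the 3 control mice, 130.0, 134 and 125 in MPTP mice and 158, 159.9 and 155 in irisin pre-treated mice. The 3 groups did not overlap, with controls lowest and irisin pre-treated mice highest. MPTP mice exceeded controls by 0.19 ± 0.058 (log2 fold change ± SE, adjusted p = 0.815), and irisin pre-treated mice exceeded MPTP mice by 0.28 ± 0.058 (unadjusted p = 0.000908, adjusted p = 0.251). These comparisons share the MPTP mice. Delayed mice had Kcnt1 levels of 77.9, 102 and 103 CPM in controls, 80.8, 112 and 103 in irisin mice, 105, 101 and 95.0 in MPTP mice and 99.5, 104 and 101 in irisin post-treated mice, and all 4 groups overlapped. The other sodium-activated gene, Kcnt2, differed by 0.038 ± 0.13 between irisin pre-treated and MPTP mice.

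**Figure D3:**
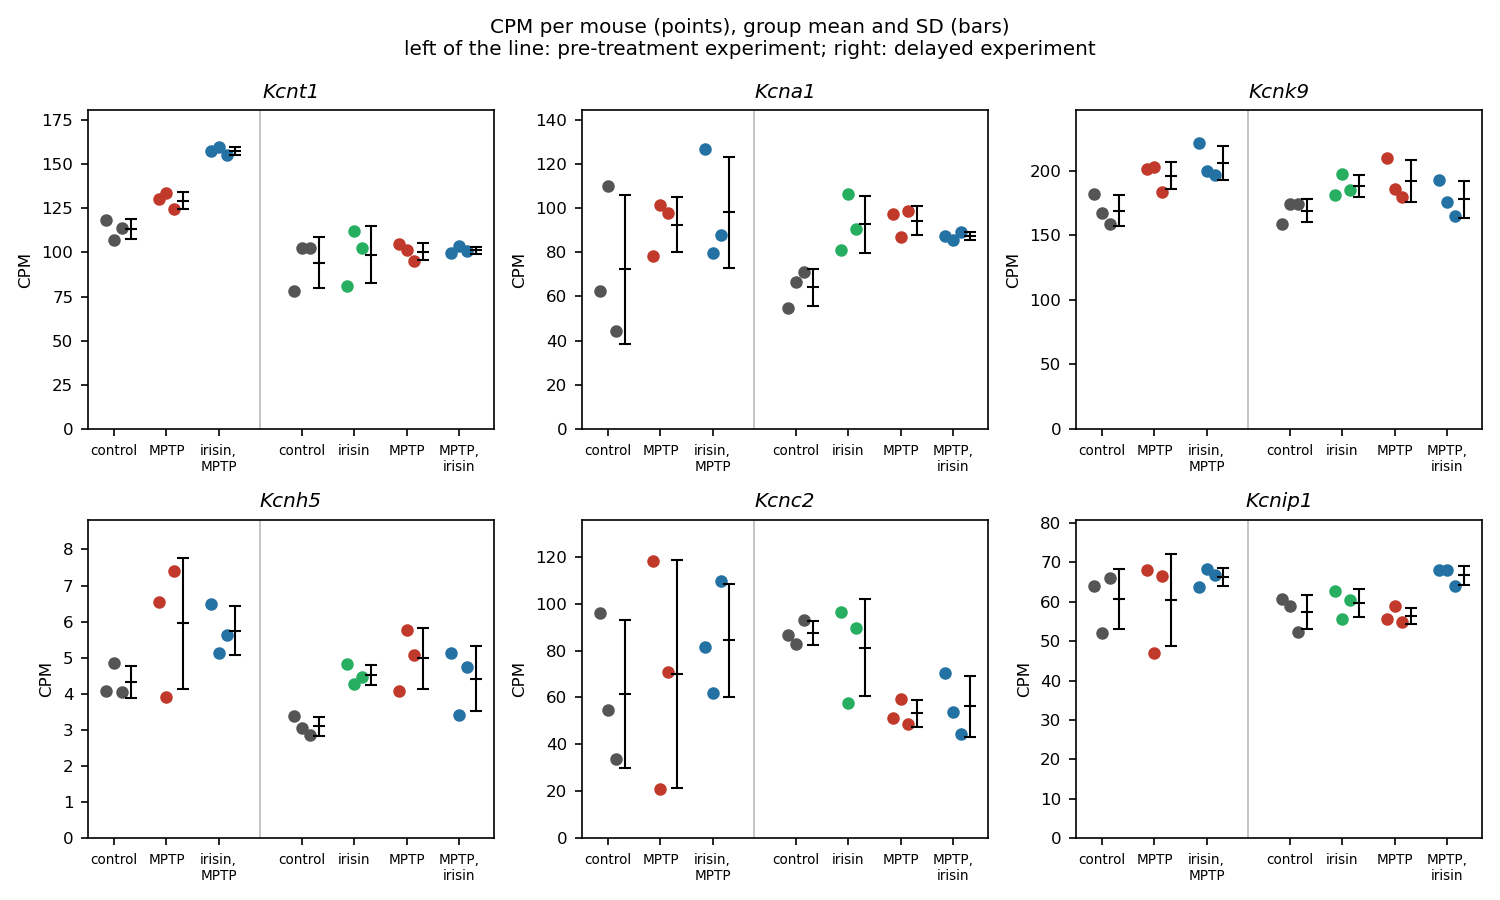
CPM per mouse (points) with the group mean and SD (bars) for 6 Kcn genes, with the pre-treatment experiment left and the delayed experiment right of each line. Kcnt1 forms 3 separate levels in the pre-treatment experiment, and delayed control mice lie below every other delayed group for Kcna1.

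The remaining members at an unadjusted p under 0.05 between pre-treatment MPTP and control mice comprised 5 genes beside the choroid plexus genes Kcne2 and Kcnj13. Kcnk9, the TASK-3 background channel, had 182, 167 and 158 CPM in controls and 201, 203 and 184 in MPTP mice. Kcnq5, an M-current pore, had 16.5, 21 and 21.4 CPM in controls and 26.5, 23.1 and 24.6 in MPTP mice. Kcnj8 had 4.55, 3.56 and 4.46 CPM in controls and 5.41, 5.47 and 5.35 in MPTP mice. These 3 genes were without overlap and higher with MPTP, by 0.21 ± 0.075, 0.33 ± 0.12 and 0.37 ± 0.15. Kcna5, the Kv1.5 pore, had 1.85, 2.39 and 2.84 CPM in controls, 3.44, 2.98 and 3.53 in MPTP mice and 4.03, 4.17 and 4.48 in irisin pre-treated mice. These 3 groups did not overlap, but unlike Kcnt1 the step from MPTP to irisin pre-treated mice did not pass an unadjusted p of 0.05. Kcne4, an auxiliary subunit, was the one member of the 8 that was lower with MPTP, at 2.39, 2.02 and 2.41 CPM in controls and 1.5, 1.79 and 1.32 in MPTP mice (-0.56 ± 0.21). The adjusted p of these 5 genes was 0.818 or 0.823. Counted by groups that did not overlap, 9 members (10.1%) separated MPTP from control mice against 11.6% of all genes, and 6 (6.74%) separated irisin pre-treated from MPTP mice against 14.2%.

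In the delayed experiment, Kcna1 had the smallest p among members for MPTP and for irisin alone. Kcna1 is the Kv1.1 pore of axons, where it limits repetitive firing. Kcna1 (ENSMUSG00000047976) lies at chr6:126640397-126644813 on the minus strand of GRCm38. Its level was 54.7, 66.6 and 70.8 CPM in control mice, 81.1, 106 and 90.5 in irisin mice, 97.3, 87.0 and 98.8 in MPTP mice and 87.2, 85.6 and 89.1 in irisin post-treated mice. Every control mouse was below every mouse of the other 3 groups. The difference from controls was 0.56 ± 0.11 for MPTP (adjusted p = 0.149) and 0.53 ± 0.11 for irisin alone (adjusted p = 0.212), and the interaction was -0.64 ± 0.16 (adjusted p = 0.571). These 3 values share the control mice, of which mice 1 and 2 were rich in choroid plexus genes. Without the choroid plexus-rich mice, which leaves 1 control assumed to vary like the other groups, the difference was 0.38 for MPTP (unadjusted p = 0.0513) and 0.39 for irisin alone (unadjusted p = 0.0403), and the interaction was -0.45 (unadjusted p = 0.0589). In the pre-treatment experiment, Kcna1 had 62.7, 109.8 and 44.4 CPM in controls and 78.1, 102 and 97.7 in MPTP mice, and the groups overlapped.

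Kcnh5, the EAG2 channel, also had its lowest levels in delayed controls. It had 3.40, 3.04 and 2.86 CPM in delayed controls, 4.83, 4.28 and 4.48 in irisin mice, 4.09, 5.78 and 5.07 in MPTP mice and 5.13, 3.41 and 4.74 in irisin post-treated mice. Control mice were below all irisin mice and all MPTP mice, by 0.55 ± 0.18 and 0.68 ± 0.18, and by 0.66 and 0.79 without the choroid plexus-rich mice. Kcnk9 had 159, 174 and 174 CPM in controls and 210.1, 186 and 179.6 in MPTP mice, a difference of 0.18 ± 0.077 (adjusted p = 0.559), so that MPTP mice were above controls without overlap in both experiments. Kcnq3, an M-current pore, had 71.8, 81.9 and 81.0 CPM in controls and 91.6, 98.4 and 88.6 in irisin mice (0.25 ± 0.11, adjusted p = 0.545). Without the choroid plexus-rich mice, the differences of Kcnk9 and Kcnq3 were 0.18 and 0.20 and did not pass an unadjusted p of 0.05.

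Lower levels against delayed controls were seen for Kcnc2 and Kcnh2. Kcnc2, the Kv3.2 pore of fast-firing GABA neurons, had 86.5, 82.8 and 93.2 CPM in controls, 96.3, 57.7 and 89.8 in irisin mice, 51.4, 59.4 and 48.7 in MPTP mice and 70.4, 53.7 and 44.5 in irisin post-treated mice. MPTP mice were below controls without overlap (-0.72 ± 0.19, adjusted p = 0.350). In the pre-treatment experiment, the same gene had 95.8, 54.9 and 33.7 CPM in controls and 118, 20.9 and 71.0 in MPTP mice, and the wide ranges overlapped. Kcnh2, the ERG1 channel, had 135, 125 and 127 CPM in delayed controls and 104, 119 and 111 in irisin mice (-0.21 ± 0.072, adjusted p = 0.489). Without the choroid plexus-rich mice, the differences of Kcnc2 and Kcnh2 were -0.75 and -0.19, with unadjusted p-values of 0.0631 and 0.129. Kcne4 had 2.07, 1.05 and 2.73 CPM in controls and 3.73, 3.45 and 4.27 in irisin mice, a difference of 0.96 ± 0.35, which was 0.48 without the choroid plexus-rich mice. By groups that did not overlap, 13 members (14.6%) separated MPTP from control mice against 16.2% of all genes, and 17 (19.1%) separated irisin mice from controls against 15.1%.

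Summed markers of some cell types separated delayed controls from irisin mice. The 6 striatal neuron markers summed to 258 to 302 CPM in controls, 209.9 to 241 CPM in irisin mice and 225 to 269 CPM in MPTP mice. The 7 astrocyte markers summed to 2917 to 2988 CPM in controls, 2853 to 3085 CPM in MPTP mice and 2799 to 2833 CPM in irisin mice. The 10 dopaminergic markers summed to 706 to 749 CPM in controls, 657 to 667 CPM in irisin mice and 482 to 615 CPM in MPTP mice. Controls and irisin mice did not overlap for these 3 lists, and MPTP mice overlapped controls for the striatal and astrocyte lists. Single markers of each list went both ways between controls and irisin mice. Mean CPM fell from 182 to 153 for Penk and rose from 14.6 to 16.2 for Rgs9. Among astrocyte markers, Gfap fell from 574 to 466 and Slc1a2 rose from 1371 to 1421. Among dopaminergic markers, Aldh1a1 fell from 388 to 357 and Nr4a2 rose from 15.1 to 18.1. No gene of these lists was at 0 in every mouse, and 2 striatal, 1 astrocyte and 1 dopaminergic marker passed an unadjusted p of 0.05 for irisin alone. The part of these lists in the differences of Kcna1, Kcnh5, Kcnq3, Kcnh2 and Kcne4 between irisin mice and controls was not tested.

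For irisin given after MPTP, the lowest p among members belonged to Kcnip1, a calcium-binding partner of Kcnd channels. Kcnip1 had 55.7, 58.8 and 54.9 CPM in MPTP mice and 68.1, 68.1 and 63.9 in irisin post-treated mice (0.24 ± 0.073, adjusted p = 0.9995). A relative with the same role, Kcnip4, had 58.8, 60.1 and 57.7 and 75.2, 63.9 and 66.3 CPM in the same groups (0.22 ± 0.094). Both were without overlap and higher after irisin, while Kcnip3 was lower without overlap, at 91.2, 97.5 and 89.0 and 88.2, 85.9 and 79.0 CPM (-0.13 ± 0.065). Kcnh3, the ELK2 channel, had 2.06, 9.29 and 1.72 CPM in MPTP mice and 1.45, 1.47 and 0.848 in irisin post-treated mice. That difference of -1.80 ± 0.58 rested on MPTP mouse 2, and was -0.59 without it. The same mouse was the highest for Kcnj4, a Kir2.3 pore, at 7.40 CPM against at most 3.33 in the other 11 mice. The members Kcnk5 and Kcnk12, two-pore channels, and Kcnh7, the ERG3 channel, had an interaction of -0.90 ± 0.34, 0.70 ± 0.29 and -0.37 ± 0.15, each with an adjusted p of 0.893. Without the choroid plexus-rich mice these were -0.70, 0.76 and -0.19, and those of Kcnip1 and Kcnip4 for irisin after MPTP were 0.20 and 0.25. Counted by overlap, 11 members (12.4%) separated irisin post-treated from MPTP mice against 10.7% of all genes.

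Among members tested in the pre-treatment experiment, Kcne2 and Kcnj13 had the highest coefficients of variation over mice, at 249.8% and 159%. Kcne2 is an auxiliary subunit and Kcnj13 the Kir7.1 pore, and both are known from the choroid plexus. Kcne2 had 0.224, 0.443 and 0.317 CPM in pre-treatment controls, 0.273, 17.2 and 0.546 in MPTP mice and 0.398, 0.543 and 0.261 in irisin pre-treated mice. Kcnj13 had 0.805, 0.929 and 0.879 CPM in those controls, 0.633, 10.9 and 1.39 in MPTP mice and 0.343, 1.29 and 1.61 in irisin pre-treated mice. The single high value of each gene was in MPTP mouse 2, in which the choroid plexus marker Ttr stood at 1539 CPM against 2.80 to 17.2 in the other 8 mice. The fitted MPTP differences of 4.19 ± 1.41 and 2.30 ± 0.98 rested on that mouse, and without it they were 0.32 and 0.22. For irisin before MPTP, Kcne2 differed by -3.90 ± 1.38 with that mouse and by -0.038 without it. The 6 choroid plexus markers of that mouse summed to 1643 CPM.

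In the delayed experiment, Kcne2 had 10.6, 7.89 and 1.89 CPM in controls, 0.704, 0.519 and 2.69 in irisin mice, 0.442, 0.651 and 10.4 in MPTP mice and 0.375, 10.7 and 3.02 in irisin post-treated mice. Kcnj13 had 8.84, 9.06 and 3.25 CPM in controls, 1.71, 2.08 and 2.52 in irisin mice, 1.95, 3.20 and 9.70 in MPTP mice and 1.18, 10.3 and 5.22 in irisin post-treated mice. The 4 highest mice for both genes were the 4 choroid plexus-rich ones, from 3 groups. Irisin mice were below controls without overlap for Kcnj13 (-1.74 ± 0.75), and without the choroid plexus-rich mice the difference was -0.63.

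**Figure D4:**
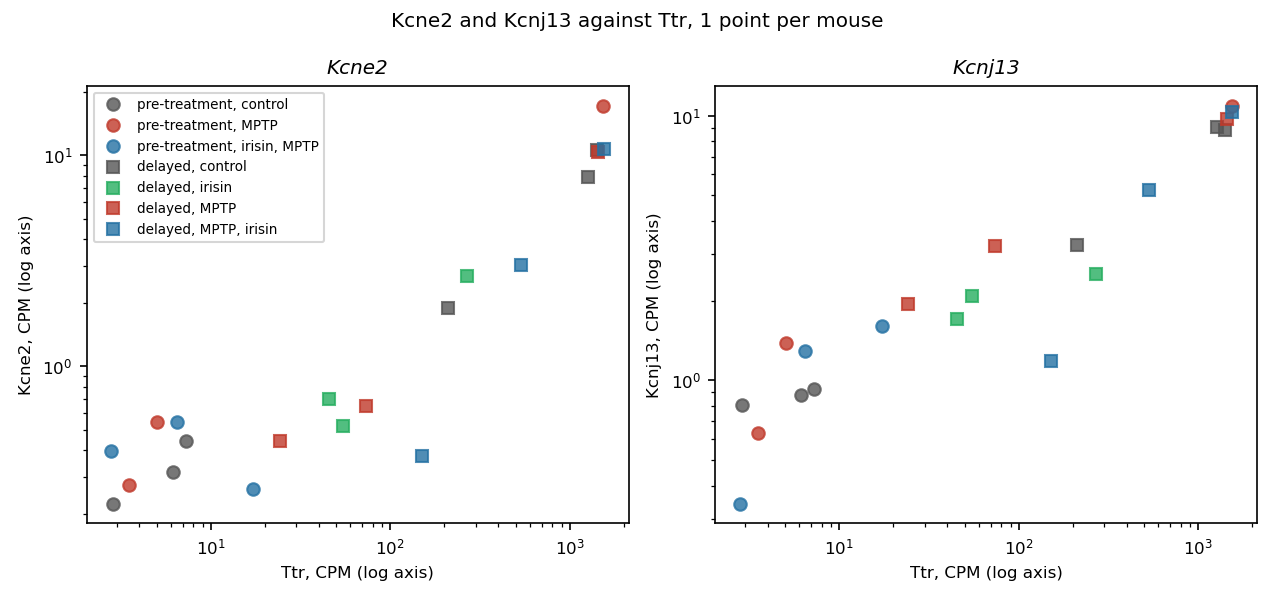
Kcne2 (left) and Kcnj13 (right) against Ttr in CPM on log axes, 1 point per mouse, with circles for the pre-treatment and squares for the delayed experiment and a colour for each group. The 5 mice with over 1000 CPM of Ttr, from 4 groups, are the 5 highest for both genes.

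The promoters of these genes are shown since they had their highest levels in the same mice, as 250 bases before and 20 after a start in RefSeq (GRCm38.p6), with capitals for TATAAA and for TAATC, the core letters bound by Otx homeodomain proteins, searched on both strands (GATTA is TAATC on the reverse strand). The Kcne2 promoter is chr16:92292139-92292408 on the plus strand, the first of 2 listed starts, and the Kcnj13 promoter is chr1:87394710-87394979 on the minus strand.
Kcne2: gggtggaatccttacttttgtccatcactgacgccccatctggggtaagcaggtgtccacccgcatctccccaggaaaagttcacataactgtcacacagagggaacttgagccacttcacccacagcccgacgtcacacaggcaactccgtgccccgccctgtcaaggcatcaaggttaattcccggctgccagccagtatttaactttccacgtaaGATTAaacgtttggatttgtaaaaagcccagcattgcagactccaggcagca
Kcnj13: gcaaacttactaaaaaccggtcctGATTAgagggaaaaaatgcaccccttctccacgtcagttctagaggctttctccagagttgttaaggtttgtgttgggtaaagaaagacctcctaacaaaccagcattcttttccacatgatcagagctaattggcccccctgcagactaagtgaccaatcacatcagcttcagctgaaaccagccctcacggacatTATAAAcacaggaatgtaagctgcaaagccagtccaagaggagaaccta
The Kcne2 window held TAATC once, on the reverse strand with its first base at position -32, and the Kcnj13 window held TATAAA at position -29 and TAATC on the reverse strand at -226, where the matches did not overlap. Over all 32851 windows of this length, 20.7% held TAATC and 12.9% held TATAAA. Of the 97 windows of 72 members with an entry, 19 held TAATC and 4 held TATAAA. The Kcnj13 window had 45.6% G and C and the Kcne2 window 52.6%. The median was 58.5% over member windows and 52.6% over all windows. The window of the second Kcne2 start held 0 matches to either motif.

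Several members fell into separate levels within groups, a pattern looked for after the values were seen. With a mean of at least 1 CPM, 7 of 79 members in the pre-treatment experiment (8.86%) and 8 of 78 in the delayed experiment (10.3%) had a gap of at least 2-fold between neighbouring mice in order of level, against 5.61% and 4.69% of all genes. Kcnb2 (ENSMUSG00000092083) lies at chr1:15287254-15723750 on the plus strand of GRCm38. Kcnb2, the Kv2.2 pore, had 5.35, 24.3 and 24.9 CPM in pre-treatment controls, 25.5, 25.8 and 28.0 in MPTP mice and 28.8, 18.7 and 6.40 in irisin pre-treated mice. Its delayed values were 2.84, 3.54 and 3.98 CPM in controls, 16.5, 3.58 and 13.1 in irisin mice, 13.3, 16.9 and 15.9 in MPTP mice and 19.3, 17.2 and 2.75 in irisin post-treated mice. A low level thus occurred in 2 of 9 and 5 of 12 mice, and all 3 delayed controls were among the low ones. MPTP mice of the delayed experiment exceeded controls by 2.15 ± 0.65 (adjusted p = 0.393), or by 1.93 without the choroid plexus-rich mice, while in the pre-treatment experiment 2 of 3 controls were at the high level.

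Kcnn3, the SK3 channel of dopaminergic neurons, had 4.30, 27.3 and 12.5 CPM in delayed irisin mice and 26.4, 5.41 and 5.52 in MPTP mice, so that 1 mouse in each group stood apart. A single mouse stood apart for Kcna2, a Kv1.2 pore of axons, at 43.9 CPM in delayed control mouse 1 against at least 201 in the other 11. Kcnmb2, a beta subunit of BK channels, had 4.11, 3.87 and 1.29 CPM in delayed irisin mice, against at least 2.89 in the 11 mice above the gap. In the annotation, exons of Kcnn1, Kcnn2, Kcnma1, Kcnj13, Kcnh3 and Kcnq5 overlap genes on the opposite strand, and reads from such pairs cannot be told apart where strand was not used in counting. Such an overlap was found for 31 members, and the use of strand is not given in the sources used here.

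**Figure D5:**
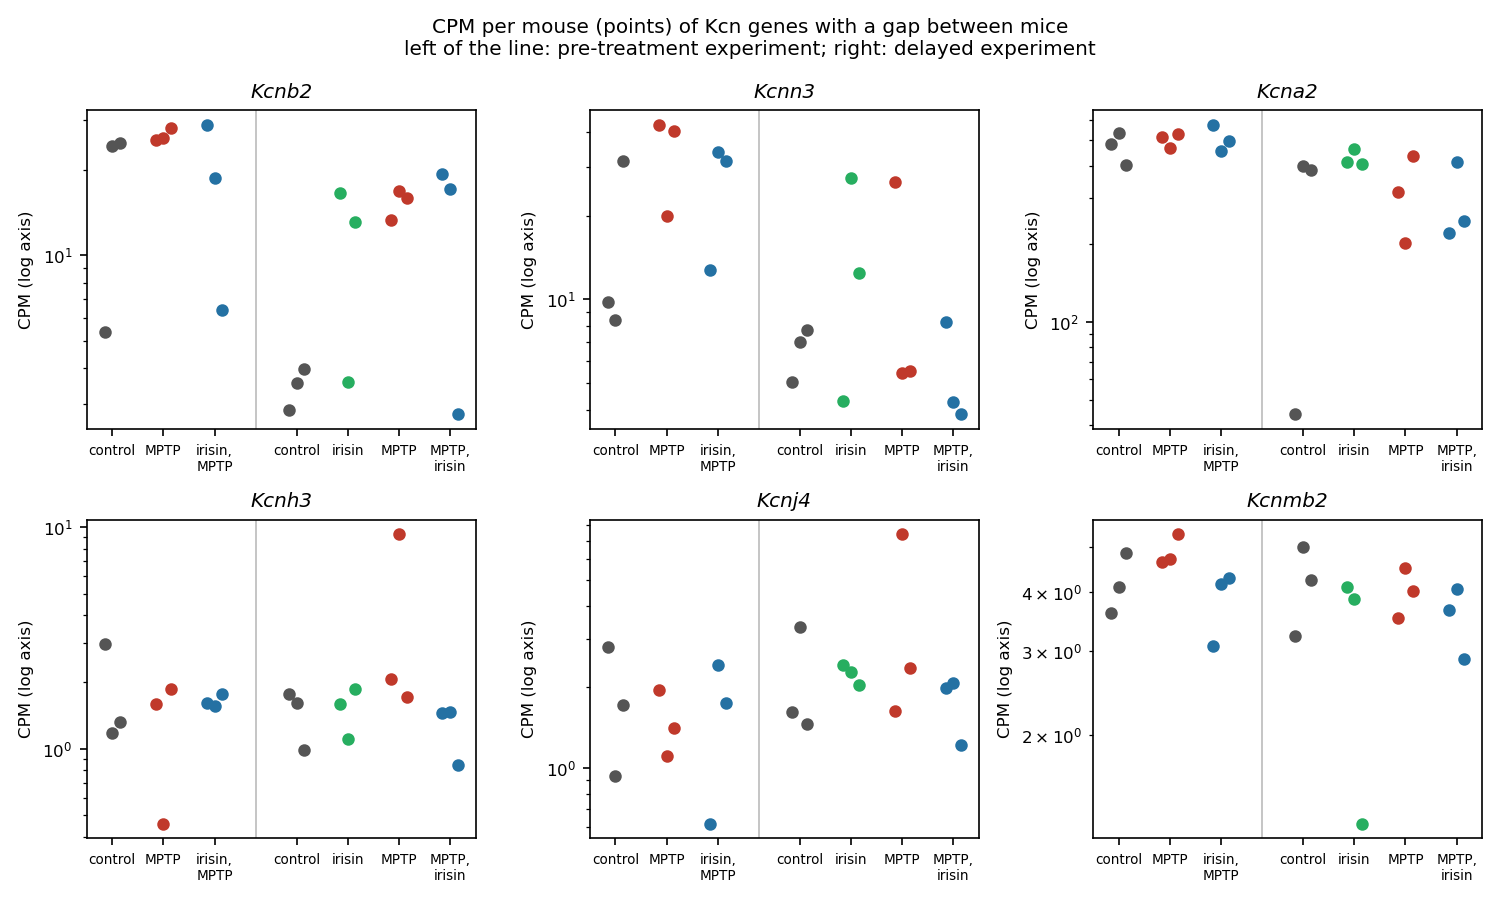
CPM per mouse on log axes for 6 Kcn genes with a gap between mice, with the pre-treatment experiment left and the delayed experiment right of each line. Kcnb2 falls into a high and a low level within groups, and Kcna2, Kcnh3, Kcnj4 and Kcnmb2 each have 1 delayed mouse far from the rest.

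Channels of dopaminergic neurons were set beside the dopaminergic markers, since MPTP damages these cells. Of the 10 markers, 6 were lower in delayed MPTP mice than in controls at an unadjusted p under 0.05, and 0 passed the adjusted threshold. Th, which makes the dopamine precursor, had 63.3, 59.2 and 50.9 CPM in delayed controls and 31.0, 31.5 and 46.0 in MPTP mice (-0.68 ± 0.14, adjusted p = 0.188). In bulk tissue, fewer cells of a type and less RNA per cell cannot be told apart. Over the same comparison, Kcnj6 differed by 0.038 ± 0.19, Kcnd3 by 0.087 ± 0.21, Kcnj11 by -0.065 ± 0.11, Kcns3 by 0.10 ± 0.13 and Kcnn3 by 0.91 ± 0.70. Kcnip4 and the SK2 channel Kcnn2 were lower without overlap, by -0.16 ± 0.094 and -0.23 ± 0.11. None of these 7 passed an unadjusted p of 0.05. In the pre-treatment experiment, 1 of the 10 markers passed that threshold for MPTP, Slc6a3, and the list's median log2 fold change was 0.052. For irisin before MPTP 2 passed it, Slc6a3 and Nr4a2, both lower, with a median of -0.31. The dopamine transporter Slc6a3 had 58.9, 106 and 105 CPM in controls, 51.3, 65.5 and 52.1 in MPTP mice and 28.3, 37.2 and 25.7 in irisin pre-treated mice, so that irisin pre-treated mice were below MPTP mice without overlap (-0.89 ± 0.23, adjusted p = 0.494). Kcnj6 had 6.55, 6.49 and 5.06 CPM in those controls, 6.32, 8.52 and 6.59 in MPTP mice and 8.39, 6.19 and 7.05 in irisin pre-treated mice, with overlap between all groups.

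Kcnj10, Kcnj16, Kcnk13 and the noncoding Kcnq1ot1 did not pass an unadjusted p of 0.05 with MPTP in either experiment. The background channel Kcnk9, described above, passed it in both. Kcnj10 differed by -0.057 ± 0.084 with MPTP in the pre-treatment experiment and by -0.0036 ± 0.054 in the delayed one, and its partner Kcnj16 by -0.012 ± 0.076 and -0.083 ± 0.062. Kcnk13 differed by -0.081 ± 0.22 and 0.12 ± 0.14. Kcnq1ot1, the long noncoding RNA of the imprinted Kcnq1 locus, differed by 0.038 ± 0.093 and 0.082 ± 0.14.

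Genes that work with potassium channels but are not named Kcn gave no call at the adjusted threshold either. Their lists were also chosen with earlier results of these data known, so their shares are not a test. Of 13 partner genes, which include ATP-sensitive channel receptors and Kv accessory proteins, 12 and 13 were tested in the 2 experiments. At an unadjusted p under 0.05, the lysosomal potassium channel Tmem175 and the Kv2 partner Amigo1 differed between MPTP and control mice of the pre-treatment experiment (-0.60 ± 0.24 and 1.59 ± 0.69), 2 of 12 or 16.7% against 6.03% of all genes. Amigo1 had 20.1, 9.62 and 15.6 CPM in controls and 12, 89.1 and 35.2 in MPTP mice, so that the groups overlapped and choroid plexus-rich mouse 2 was the highest. Without that mouse, Tmem175 and Amigo1 differed by -0.38 and 0.65 and neither passed the threshold. For irisin before MPTP, Tmem175 passed it (0.61 ± 0.24, 8.33% of the list against 6.22% of all genes), and differed by 0.40 without that mouse. Amigo1 went the other way with MPTP in the delayed experiment (-0.93 ± 0.47) and did not pass with all mice in the fit. Its interaction of 1.77 ± 0.67 passed (7.69% against 5.57% of all genes). Its highest delayed mouse was control 3, at 124 CPM, which was not choroid plexus-rich. Without the choroid plexus-rich mice, control 3 is the only control left. The Amigo1 differences were then larger, at -1.93 for MPTP, -1.89 for irisin alone and 2.96 for the interaction, and those values rest on that mouse. Of 11 potassium transport genes, which are sodium pump subunits and cation chloride cotransporters, 5 passed that threshold for delayed MPTP (45.5% against 8.33% of all genes) and 4 for irisin alone (36.4% against 8.97%). Both comparisons use the same controls, of which 2 of 3 were choroid plexus-rich, and without the rich mice the counts were 1 and 2. The sodium pump subunit Atp1b2 differed by -0.23 ± 0.059 and -0.27 ± 0.059, and the cotransporter Slc12a2 by 0.20 ± 0.049 and 0.20 ± 0.049. Without the rich mice these were -0.23 and -0.27 for Atp1b2 and 0.19 and 0.21 for Slc12a2. On these fitted means, delayed controls were above both treated groups for Atp1b2 and below them for Slc12a2. The interaction, which also uses these controls, gave 3 of the 11 (27.3% against 5.57% of all genes), and irisin after MPTP gave 0. In the pre-treatment experiment only Slc12a5 passed, for MPTP (0.59 ± 0.18) and irisin before MPTP (-0.42 ± 0.18), 9.09% against 6.03% and 6.22%. Without choroid plexus-rich mouse 2 these differences were 0.38 and -0.21, and only the first passed.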

How the data were processed

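Midbrain RNA of 21 mice was sequenced, 3 a group. The authors counted reads per gene with featureCounts and deposited raw counts and FPKM for each experiment. The submitters' processing notes name HISAT, StringTie and edgeR without a version, and mm9, whereas the coordinates of 91.9% and 86.9% of genes were identical to GENCODE release 21 on GRCm38, which was used here. The use of strand in counting is not given in the sources used here. FPKM followed from the counts and were used for levels only. CPM used TMM-scaled library sizes, so CPM compare mice, not genes.

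Counts were tested with edgeR 4.0.16 in R 4.3.3 (quasi-likelihood test, TMM scaling, filterByExpr with a count minimum of 10 and a total of 15, all groups of an experiment in 1 fit, Benjamini-Hochberg adjustment over all tested genes), after the code was tested on simulated data. The threshold was an adjusted p of 0.05. With single values, 3 mice against 3 cannot go below an exact p of 0.10. Alternatives were median ratio scaling, no count filter, the compared groups alone, a replicate block, DESeq2 1.42.0, leaving out each mouse and, chosen after seeing the data, leaving out mice with over 1000 CPM of choroid plexus markers. In the 21 pairs of mice of a group, the counts differed by more than sampling noise, with a smallest chi-square per gene of 39.7, so that no library was counted as a repeat.

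Named genes were those past the adjusted threshold, up to 6 in each comparison with the smallest unadjusted p under 0.05 and groups that did not overlap (for the interaction, the p alone), the 10 highest by FPKM, and a list of 34 members. Other genes named for gaps between mice, for subfamily counts or as members outside this rule were chosen after their values were seen. The members and lists were chosen with earlier results of these data known. RefSeq promoters were matched by symbol for 72 members. Results of some genes are not reported here.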

Additional observations from a re-analysis of the deposited data

How the results depend on the processing

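With edgeR, the count of members past the adjusted threshold was 0 in every comparison under median ratio scaling, without a filter, with the replicate block, without the choroid plexus-rich mice and with each mouse left out (range 0 to 0). It was not 0 with DESeq2 without a filter before the fit, which gave 1 for irisin before MPTP, 2 for MPTP in the delayed experiment and 1 for irisin alone. Nor was it 0 with the compared groups alone, which gave 1 for MPTP in the delayed experiment. The cause was not tested, and the shares of all genes called by these fits are not given here.

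The count at an unadjusted p under 0.05 was less stable. With the compared groups alone it was 5 in place of 8 for MPTP and 4 in place of 2 for irisin before MPTP in the pre-treatment experiment. With each mouse left out it ranged from 4 to 9 for MPTP (4 without control 1 or MPTP mouse 3, 5 without MPTP mouse 1) and from 2 to 5 for irisin before MPTP (5 without MPTP mouse 1, 4 without MPTP mouse 3 or irisin pre-treated mouse 3). In the delayed experiment it ranged from 6 to 10 for MPTP (10 without control 3), from 3 to 13 for irisin alone (3 without control 1, 13 without control 3, 5 without irisin mouse 2), from 2 to 7 for irisin after MPTP (2 without MPTP mouse 2, 7 without MPTP mouse 3) and from 2 to 13 for the interaction (2 without control 1, 13 without irisin post-treated mouse 1, 4 without irisin post-treated mouse 2). Without the choroid plexus-rich mice it was 2 for irisin alone, 2 for irisin after MPTP and 1 for the interaction, with 1 control left.

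For 27 named pairs of gene and comparison, 354 values under alternatives kept their direction, of which 271 stayed under an unadjusted p of 0.05 and 83 did not. All alternatives kept 5 of the 27 under it, which were Kcnt1 in both comparisons, Kcna1 for irisin alone and Kcnh5 for MPTP and for irisin alone. Lowering the FPKM level from 1 to 0.5 gave 76 members in each experiment.

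Mice with the same replicate number did not deviate together (correlations of -0.078 to 0.101 in the pre-treatment and -0.076 to 0.039 in the delayed experiment). No pairing by number was thus seen, though the labels do not say whether mice shared a cage or a day. With the replicate block the unadjusted counts were 7 and 2 in the pre-treatment experiment and 5, 7, 5 and 6 in the delayed experiment. Precision was limited by 3 mice a group.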
